A study of Homo sapiens with 24 samples.

Results

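Mitochondrial fatty acid oxidation enzymes were followed at the level of mRNA in SKBR3 cells, an established HER2-positive human breast cancer line, during therapy-induced senescence (TIS). The set was defined by name and holds the 10 genes CPT2, ACADVL, ACADM, ACADS, HADHA, HADHB, ECI1, ETFA, ETFB, and ETFDH. Of these, 9 have a row among the 14493 genes of the deposited read-count table, all 9 passed the filter on low counts in every comparison, and ACADS was not analysed here. RNA-seq was performed on 24 libraries in 8 groups of 3 replicates. The study asked how senescence induced by blocking fatty acid synthesis (FASTIS) differs from senescence induced by other drugs.

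FASTIS was induced with the acetyl-CoA carboxylase (ACC) inhibitor ND-646 at 250 nmol/L or with the fatty acid synthase (FASN) inhibitor TVB-3166 at 250 nmol/L. The other TIS groups received the DNA-breaking agent bleomycin at 10 μmol/L, the topoisomerase poison doxorubicin at 10 nmol/L, palbociclib, which inhibits cyclin-dependent kinases, at 1 μmol/L, or the Aurora A kinase inhibitor alisertib at 500 nmol/L. All 6 drug groups were given fresh drug on day 3 and were collected on day 7. The controls were untreated cells of the same line collected on day 0 (untreated day-0) and on day 7 (untreated day-7). The labels name a refeed on day 3 for the drug groups but none for untreated day-7 cells. Against that control, a difference in refeeding cannot be told apart from the drug. The methods state that compounds were dissolved in DMSO, whereas the labels call the controls untreated. All groups derive from 1 cell line, and the labels do not say whether replicates were separate cultures, so p-values measure only the spread between these samples, which may be technical.

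Mitochondrial β-oxidation shortens fatty acids inside the mitochondrial matrix. Long-chain acyl groups enter as acylcarnitines and are returned to CoA by CPT2, after which each round runs through a dehydrogenation, a hydration, a second dehydrogenation, and a thiolytic cut that releases acetyl-CoA. Electrons of the first dehydrogenation leave the acyl-CoA dehydrogenases through the electron transfer flavoprotein (ETF, made of ETFA and ETFB) and its quinone oxidoreductase (ETFDH), which hands them to coenzyme Q of the respiratory chain. Malonyl-CoA, the product of ACC and the substrate of FASN, is known to inhibit the carnitine palmitoyltransferase that starts this import.

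The 24 libraries held 29405121 to 44316330 counts each, and the members had from 208 to 16195 counts in a library, so that replicate spread rather than counting error limits the precision. ND-646 replicate 1 and untreated day-0 replicate 1 stood apart from their groups. The χ2 statistic per degree of freedom between replicates was 146 and 159 for the pairs with ND-646 replicate 1 against 13.4 for the other pair, and 171 and 172 for the pairs with untreated day-0 replicate 1 against 18.3. The members' tests that use either library are therefore also described without it, and the shares of all genes and the correlations without it were added after seeing the data. The 8 luminal epithelial markers were present in every group, with a summed level of 12373 to 22263 CPM (counts scaled to library size, with TMM factors) over the libraries, and lay below the untreated day-0 range of 19239 to 22239 CPM in every bleomycin, doxorubicin, palbociclib, and alisertib library. Untreated day-7 (16594 to 19241 CPM), ND-646 (14219 to 22263 CPM), and TVB-3166 libraries (16987 to 20541 CPM) also reached below that range and overlapped with it. Of 6 stromal, immune, and endothelial markers, COL1A1 and ACTA2 have a row, and their summed level was 10.3 to 19.9 CPM, highest on average in doxorubicin cells (15.97 to 19.9 CPM). The part of these markers in the results below was not tested, and in bulk samples fewer cells of a type and less RNA per cell cannot be told apart.

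Gene positions are those of the GENCODE annotation on GRCh37, the build of the counts. The carnitine transferase and dehydrogenases are CPT2 at chr1:53662464-53679869 (plus strand), ACADVL at chr17:7120444-7128585 (plus strand), and ACADM at chr1:76190116-76253260 (plus strand). The enzymes of the later steps are HADHA at chr2:26413504-26467540 (minus strand), HADHB at chr2:26466038-26513333 (plus strand), and ECI1 at chr16:2289403-2302301 (minus strand). The electron carriers are ETFA at chr15:76480896-76604071 (minus strand), ETFB at chr19:51848423-51869642 (minus strand), and ETFDH at chr4:159593120-159631894 (plus strand).

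Promoter windows from RefSeq (GRCh38.p14, 250 bases before to 50 bases after a start site) were read for 8 of the 9 members, in 10 windows. They are shown for the member that was higher in every drug group than in untreated day-0 cells (ACADM), for the electron carrier subunit that was lower in every drug group (ETFB), and for the trifunctional protein pair HADHA and HADHB. The HADHA and HADHB starts lie 307 bases apart on chromosome 2 and point away from each other, so that their windows share 194 bases and only that of HADHA is printed. Capitals mark the GC box GGGCGG on either strand, including overlapping matches.
ACADM, chr1:75724459-75724758, plus strand: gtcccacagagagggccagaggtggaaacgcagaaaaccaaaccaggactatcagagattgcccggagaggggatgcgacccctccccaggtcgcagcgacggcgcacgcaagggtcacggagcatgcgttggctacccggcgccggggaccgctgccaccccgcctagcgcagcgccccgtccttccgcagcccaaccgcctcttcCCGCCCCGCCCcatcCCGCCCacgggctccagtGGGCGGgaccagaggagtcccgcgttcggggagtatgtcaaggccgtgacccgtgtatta
ETFB, chr19:51366339-51366638, minus strand: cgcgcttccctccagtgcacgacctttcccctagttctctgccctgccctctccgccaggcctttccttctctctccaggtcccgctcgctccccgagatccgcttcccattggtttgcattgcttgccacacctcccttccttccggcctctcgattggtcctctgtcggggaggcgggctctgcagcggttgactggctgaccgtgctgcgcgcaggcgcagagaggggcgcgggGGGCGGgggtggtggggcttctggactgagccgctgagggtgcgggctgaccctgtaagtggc
HADHA, chr2:26244583-26244882, minus strand: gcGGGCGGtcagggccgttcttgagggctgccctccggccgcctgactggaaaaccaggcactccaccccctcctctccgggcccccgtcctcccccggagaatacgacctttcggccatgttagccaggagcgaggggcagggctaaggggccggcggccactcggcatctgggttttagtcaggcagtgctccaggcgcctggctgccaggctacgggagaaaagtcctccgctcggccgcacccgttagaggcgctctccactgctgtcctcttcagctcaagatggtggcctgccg
All 8 members with a window had at least 1 GC box in at least 1 window, but the ACADVL window at chr17:7216875-7217174 held none. Counted by window rather than by gene, this hexamer was found in 45.0% of 35116 windows of 300 bases. The ACADM window held 4 matches and the printed windows of ETFB and HADHA 1 each. None of the 10 windows held the estrogen-related receptor element TCAAGGTCA, the nuclear receptor half-site AGGTCA, the E-box CACGTG, or the NRF1 core GCGCATGCG on either strand. These letters were found in 0.353%, 13.8%, 7.26%, and 1.92% of all windows, respectively.

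Per length of the main transcript, the 9 members covered a wide range in untreated day-0 cells. ACADVL was at 117 ± 4.56 CPM per kb (mean ± SD, n = 3 for all groups), HADHA at 115 ± 7.81, and ETFA at 111 ± 1.87 CPM per kb. These 3 levels did not differ beyond their spread. HADHB followed at 58.2 ± 6.79, ECI1 at 42.9 ± 3.15, ACADM at 36.9 ± 8.21, ETFB at 24.3 ± 2.597, CPT2 at 20.2 ± 4.24, and ETFDH at 15.8 ± 1.24 CPM per kb. ECI1 and ACADM met within their SDs, as did ETFB and CPT2 and, further down, CPT2 and ETFDH. In palbociclib cells ACADM stood at 122 ± 21.3 CPM per kb and had reached the level of HADHA, at 128 ± 11.1, and ETFA, at 112 ± 8.28. Lengths are those of the MANE Select transcripts and levels of different genes depend on them.

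The members did not move as a block. Against untreated day-0 cells, each drug group had 1 to 3 members higher and 2 or 3 lower, at an adjusted p under 0.05 (quasi-likelihood test of edgeR, adjusted by Benjamini-Hochberg over all genes). In ND-646 cells 1 member was higher and 2 were lower, beside 19.1% of all 13604 genes higher and 18.8% lower. In TVB-3166 cells it was also 1 higher and 2 lower, beside 27.4% and 27.7% of all genes. The 1 and 2 members called in each are 11.1% and 22.2% of the 9, so these counts say little beside the shares of all genes. Bleomycin cells had 1 higher and 2 lower (all genes 24.1% and 25.3%), doxorubicin cells 1 and 3 (23.7% and 24.8%), palbociclib cells 3 and 3 (26% and 27.2%), and alisertib cells 1 and 2 (17.7% and 19.6%). The median log2 fold-change of the 9 members lay between -0.27 in ND-646 and 0.02 in palbociclib cells, against -0.01 to 0.02 for all genes. When ND-646 replicate 1 was left out, 1 member was higher and 6 were lower in ND-646 cells, and 27.1% and 27.8% of all genes were. When untreated day-0 replicate 1 was left out, the calls were 1 higher and 1 lower in ND-646, 1 and 3 each in TVB-3166 and bleomycin, 1 and 4 in doxorubicin, 3 and 4 in palbociclib, and 1 and 2 in alisertib cells. Of all genes, 13.7% to 27.0% were then higher and 14.2% to 27.3% lower. These comparisons share the untreated day-0 libraries.

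Untreated day-7 cells share the time in culture with the drug groups, but their labels name no refeed. Against them, as many or fewer members were higher and as many or more were lower. ND-646 cells had 0 higher and 2 lower (all genes 17.2% and 17.1%), TVB-3166 cells 1 and 3 (25.4% and 26.1%), and bleomycin cells 0 and 5 (22.4% and 23.2%). Doxorubicin cells had 1 higher and 4 lower (21.9% and 21.5%), palbociclib cells 2 and 4 (22% and 22.9%), and alisertib cells 0 and 2 (9.55% and 9.49%). The 5 lower members in bleomycin cells were CPT2, ECI1, ETFA, ETFB, and ETFDH, or 55.6% of the members beside 23.2% of all genes. When ND-646 replicate 1 was left out, 0 members were higher and 7 lower in ND-646 cells, beside 26.7% and 28.3% of all genes. Between untreated day-7 and untreated day-0 cells 0 members were called, with or without untreated day-0 replicate 1, beside 0.389% of all genes higher and 0.198% lower, and 1 member (ACADM) had an unadjusted p under 0.05, and DESeq2 also called 0. Alisertib and bleomycin replicate numbers were taken to pair with those of untreated day-7 cells, but the main counts and values come from fits without that pairing. With the replicate number as a block, alisertib cells had 1 higher (ACADVL) and 3 lower (ECI1, ETFB, and ETFDH), and bleomycin cells had 1 higher (ACADM) and the same count of 5 lower.

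**Figure D1:**
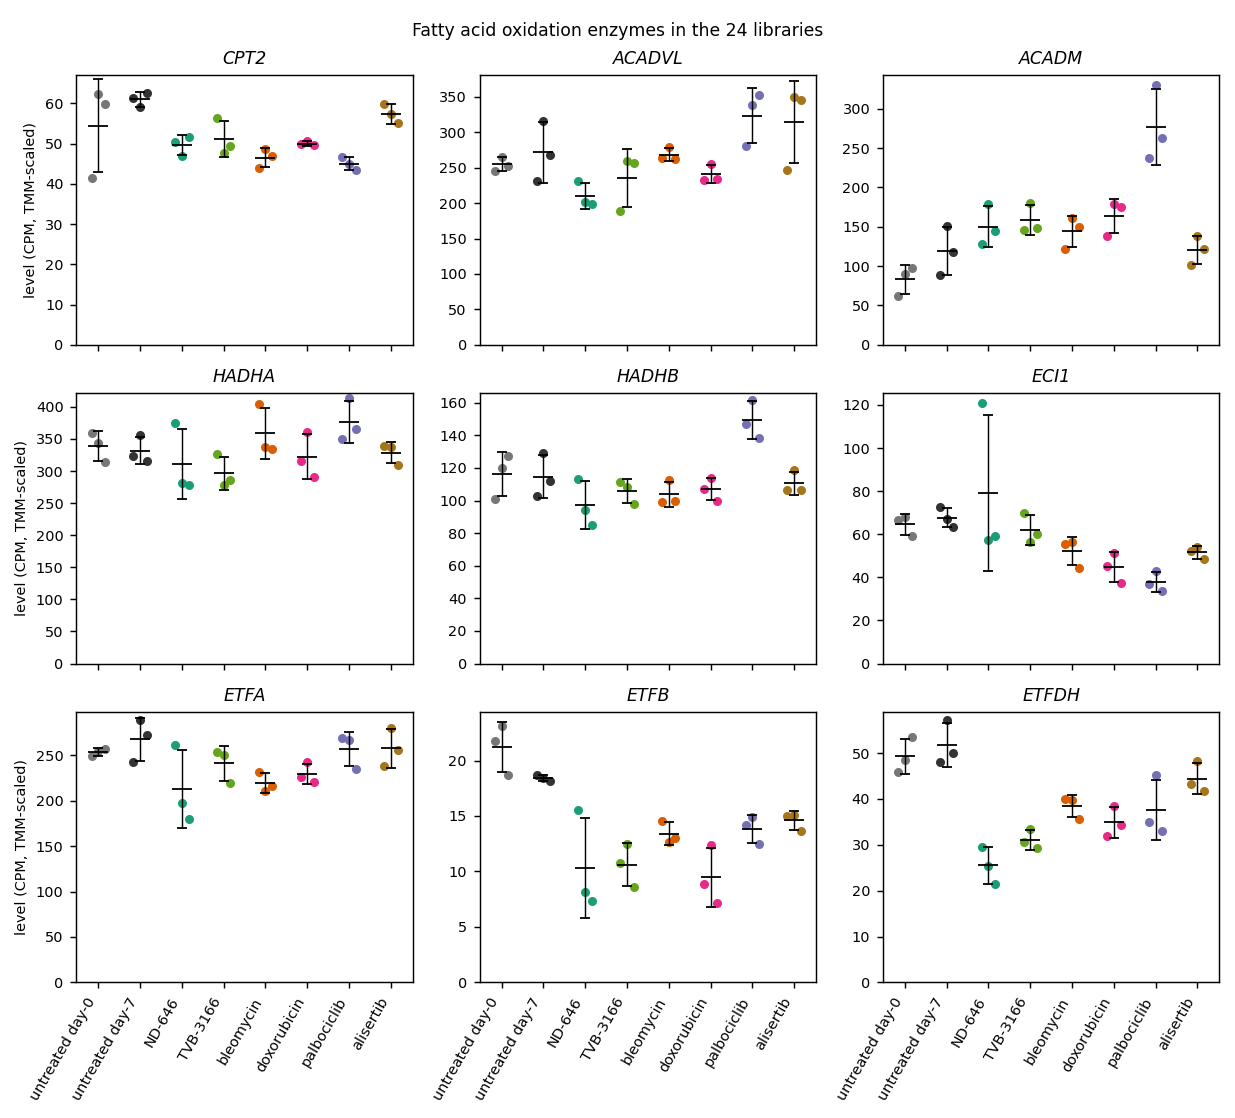
Level of each of the 9 members in CPM after TMM scaling (vertical axes from 0) in the 3 libraries of each of the 8 groups (points), with the group mean and SD (bars). ACADM stands highest in palbociclib cells, ETFB and ETFDH stand lower in most drug groups than in the controls, and the ECI1 point at 121 CPM is ND-646 replicate 1.

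CPT2, the inner-membrane enzyme that returns acylcarnitines to acyl-CoA, ranged from 41.3 to 62.6 CPM over the 24 libraries. It was measured at 41.3, 62.2, and 59.9 CPM in untreated day-0 replicates 1, 2, and 3 and at 61.4, 59.01, and 62.6 CPM in untreated day-7 cells. It was at 50.5, 46.9, and 51.6 CPM in ND-646, 56.3, 47.6, and 49.5 CPM in TVB-3166, and 43.96, 48.6, and 46.99 CPM in bleomycin cells. It was at 49.8, 50.6, and 49.5 CPM in doxorubicin, 46.7, 44.8, and 43.5 CPM in palbociclib, and 59.9, 57.3, and 55.03 CPM in alisertib cells. All libraries of the first 5 of these drug groups lay below all untreated day-7 libraries, whereas alisertib libraries overlapped with them.
CPT2 was 1.35-fold lower in palbociclib than in untreated day-7 cells (log2 fold-change -0.43 ± 0.08 SE, adjusted p = 0.00103), and its log2 fold-change was -0.38 ± 0.09 in bleomycin (adjusted p = 0.00764), -0.26 ± 0.08 in doxorubicin (adjusted p = 0.0167), and -0.25 ± 0.09 in TVB-3166 cells (adjusted p = 0.0300). ND-646 cells missed the threshold at -0.31 ± 0.12 (adjusted p = 0.0744), and passed it without ND-646 replicate 1 at -0.32 (adjusted p = 0.0124). With all libraries kept, they also passed it by DESeq2 (-0.30, adjusted p = 0.0427) and with total-count scaling (-0.53, adjusted p = 0.0161). So they did with all 24 libraries in 1 fit (-0.30, adjusted p = 0.0297). Against untreated day-0 cells no drug group was called for CPT2, with log2 fold-changes of -0.28 to 0.07. Untreated day-0 replicate 1 was the lowest of all libraries for CPT2, and without it the palbociclib (log2 fold-change -0.43, adjusted p = 0.00195), bleomycin (-0.40, adjusted p = 0.0173), doxorubicin (-0.29, adjusted p = 0.0188), and TVB-3166 (-0.25, adjusted p = 0.0498) groups were called lower. The TVB-3166 call against untreated day-7 cells was lost without TVB-3166 replicate 2 or 3 or untreated day-7 replicate 1 or 3 (log2 fold-change -0.25 to -0.20, adjusted p = 0.0585 to 0.127) and with all 24 libraries in 1 fit (-0.25, adjusted p = 0.0677). The doxorubicin call was lost without doxorubicin replicate 1 or untreated day-7 replicate 3 (log2 fold-change -0.26, adjusted p = 0.0595 to 0.0685).

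ACADM, the medium-chain acyl-CoA dehydrogenase, was the member that rose most. Its level was 62.6, 89.6, and 98.2 CPM in untreated day-0 cells and 89.3, 151, and 117 CPM in untreated day-7 cells. It reached 128, 179, and 144 CPM in ND-646 cells, 146, 180.3, and 149 CPM in TVB-3166 cells, and 122, 160.5, and 150.0 CPM in bleomycin cells. All libraries of these groups lay above the highest untreated day-0 library. It reached 138, 178, and 175 CPM in doxorubicin cells and 102, 138, and 122 CPM in alisertib cells. In palbociclib cells it reached 237, 330.0, and 262 CPM, and these 3 libraries lay above all 21 others. Ordered by group mean, ACADM was lowest in untreated day-0 (83.4 ± 18.6 CPM), untreated day-7 (119 ± 30.8 CPM), and alisertib cells (121 ± 18.2 CPM). Bleomycin (144 ± 20.2 CPM), ND-646 (150.3 ± 26.1 CPM), TVB-3166 (158 ± 19.1 CPM), and doxorubicin cells (164 ± 22.1 CPM) followed, and palbociclib cells were highest (276 ± 48.2 CPM). Neighbours in this order did not differ beyond their spread, except palbociclib from doxorubicin cells.
Against untreated day-0 cells ACADM was 3.305-fold higher in palbociclib cells (log2 fold-change 1.72 ± 0.17, adjusted p = 2.27e-05). It was 1.98-fold higher in doxorubicin (0.98 ± 0.16, adjusted p = 9.97e-04), 1.904-fold higher in TVB-3166 (0.93 ± 0.16, adjusted p = 4.45e-04), and 1.79-fold higher in ND-646 cells (0.84 ± 0.21, adjusted p = 0.0128). In bleomycin cells the fold was 1.73 (0.79 ± 0.18, adjusted p = 0.00462) and in alisertib cells 1.45 (0.53 ± 0.16, adjusted p = 0.0278). Without untreated day-0 replicate 1, the lowest library for ACADM, all 6 groups were still called, with log2 fold-changes of 0.37 in alisertib to 1.56 in palbociclib cells.
The ND-646 value of ACADM without ND-646 replicate 1 was 0.95 (adjusted p = 0.00162) against untreated day-0 and 0.43 (adjusted p = 0.0647) against untreated day-7 cells. Untreated day-7 cells had a log2 fold-change of 0.53 ± 0.20 over untreated day-0 cells that missed the threshold (adjusted p = 0.155). The rise against untreated day-7 cells was 2.33-fold in palbociclib cells (log2 fold-change 1.22 ± 0.17, adjusted p = 1.96e-04), and doxorubicin (0.48 ± 0.16, adjusted p = 0.0256) and TVB-3166 cells (0.41 ± 0.16, adjusted p = 0.0466) were called while their libraries overlapped with the control. Bleomycin cells were not called (0.29 ± 0.18, adjusted p = 0.214). They were called with the replicate number, taken to pair here, as a block (0.31, adjusted p = 0.0221). The doxorubicin call was lost without doxorubicin replicate 2 or 3 or untreated day-7 replicate 1 or 3 (log2 fold-change 0.31 to 0.46, adjusted p = 0.0769 to 0.0894), and the TVB-3166 call without TVB-3166 replicate 2 or 3 or untreated day-7 replicate 1 or 3 (log2 fold-change 0.24 to 0.46, adjusted p = 0.0746 to 0.160). The alisertib call against untreated day-0 cells was lost without alisertib replicate 2 or 3 or untreated day-0 replicate 2 (log2 fold-change 0.42 to 0.60, adjusted p = 0.0546 to 0.119). Scaling by total counts in place of TMM ended the ND-646 call against untreated day-0 cells (0.72, adjusted p = 0.0550) and the TVB-3166 call against untreated day-7 cells (0.32, adjusted p = 0.128). Fitting all 24 libraries together also ended the doxorubicin (0.46, adjusted p = 0.0691) and TVB-3166 calls (0.41, adjusted p = 0.0888) against untreated day-7 cells. ACADM shares 1379 bases on the same strand with the neighbouring gene RABGGTB in the annotation, and the counting of reads in overlapping genes is not given in the sources used here.

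ACADVL, the very-long-chain acyl-CoA dehydrogenase of the inner membrane, was called in 1 of the 12 comparisons with a control in the main fits. The gene shares 2717 bases with DLG4 on the opposite strand. It was at 246, 266, and 253 CPM in untreated day-0 and 231, 316, and 268 CPM in untreated day-7 cells. It was at 232, 201, and 198 CPM in ND-646, 189, 260.1, and 257 CPM in TVB-3166, and 232, 256, and 235 CPM in doxorubicin cells. It was at 264, 279, and 263 CPM in bleomycin, 280.1, 338, and 352 CPM in palbociclib, and 247, 349.9, and 346 CPM in alisertib cells. ND-646 libraries were low and palbociclib libraries were high relative to untreated day-0 cells, without overlap in either case. The palbociclib rise of 1.27-fold against untreated day-0 cells was called (log2 fold-change 0.34 ± 0.10, adjusted p = 0.0169) but not that against untreated day-7 cells (0.26 ± 0.12, adjusted p = 0.0987). The first was lost without palbociclib replicate 2 or 3 (log2 fold-change 0.28 to 0.32, adjusted p = 0.0616 to 0.0760). Alisertib cells missed the threshold against untreated day-0 (0.30 ± 0.13, adjusted p = 0.0921) and untreated day-7 cells (0.23 ± 0.14, adjusted p = 0.281). In the latter comparison the replicate numbers were taken to pair. With them as a block, ACADVL was called higher in alisertib cells (0.22, adjusted p = 0.0291). ACADVL was called higher in alisertib than in untreated day-0 cells by DESeq2 (0.31, adjusted p = 0.0478), with total-count scaling (0.44, adjusted p = 0.0394), and without alisertib replicate 1 (0.45, adjusted p = 0.0100). Leaving out untreated day-0 replicate 1 left 1 drug group called, palbociclib, at 0.32 (adjusted p = 0.0253), and gave -0.32 in ND-646 to 0.29 in alisertib cells for the others. ND-646 cells missed the threshold against untreated day-0 (-0.29 ± 0.14, adjusted p = 0.123) and untreated day-7 cells (-0.38 ± 0.15, adjusted p = 0.0814). ACADVL was called lower in both without ND-646 replicate 1, at -0.36 (adjusted p = 0.0135) and -0.45 (adjusted p = 0.00828). Total-count scaling with all libraries also called it lower in both, at -0.41 (adjusted p = 0.0480) and -0.61 (adjusted p = 0.0137). The fit of all 24 libraries called it lower against untreated day-7 cells (-0.37, adjusted p = 0.0315).

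HADHA and HADHB, the 2 subunits of the mitochondrial trifunctional protein that carries out the later steps of the round on long chains, changed little. HADHA ranged from 278 to 413 CPM over the 24 libraries and was called in none of the comparisons between 2 groups in the main fits, with log2 fold-changes of -0.19 in TVB-3166 against untreated day-0 cells to 0.19 in palbociclib against untreated day-7 cells. Total-count scaling called HADHA higher in palbociclib than in untreated day-0 cells (0.28, adjusted p = 0.0315). It called HADHA lower in TVB-3166 than in untreated day-7 cells (-0.25, adjusted p = 0.0231), as did leaving out TVB-3166 replicate 1 (-0.23, adjusted p = 0.0443). The replicate block called HADHA higher in palbociclib than in untreated day-7 cells (0.19, adjusted p = 0.0470). HADHB was at 101, 119.8, and 128 CPM in untreated day-0 and 103, 129, and 112 CPM in untreated day-7 cells, and at 147, 162, and 139 CPM in palbociclib cells. All palbociclib libraries lay above all 6 control libraries. The rise in palbociclib cells was 1.28-fold against untreated day-0 (log2 fold-change 0.36 ± 0.11, adjusted p = 0.0152) and 1.31-fold against untreated day-7 cells (0.39 ± 0.09, adjusted p = 0.00598), and the first was lost without palbociclib replicate 2 (log2 fold-change 0.30, adjusted p = 0.0665). In the other drug groups HADHB had log2 fold-changes of -0.27 to -0.04 and was not called. With untreated day-0 replicate 1 left out, the palbociclib value of HADHB was 0.28 (adjusted p = 0.0272), the other drug groups lay at -0.36 to -0.15 and were not called, and HADHA lay at -0.15 to 0.20 with no call. ND-646 cells were at 374, 281, and 278 CPM for HADHA and 114, 94.3, and 84.7 CPM for HADHB, and in both genes replicate 1 was the highest. HADHA was called lower without ND-646 replicate 1, at -0.29 against untreated day-0 (adjusted p = 0.0484) and -0.26 against untreated day-7 cells (adjusted p = 0.0258). HADHB was then called lower at -0.38 (adjusted p = 0.0262) and -0.37 (adjusted p = 0.0142), respectively. Total-count scaling with all libraries also called HADHB lower in ND-646 than in untreated day-7 cells (-0.48, adjusted p = 0.0287).
The ratio of HADHA to HADHB per kb was 2.01 ± 0.374 (mean ± SD) in untreated day-0 and 1.97 ± 0.145 in untreated day-7 cells. Over the drug groups it lay between 1.71 ± 0.0882 in palbociclib and 2.36 ± 0.378 in bleomycin cells. The palbociclib ratios, 1.62, 1.73, and 1.79, lay below all untreated day-7 ratios and overlapped with those of untreated day-0 cells, and the ratio was not tested. The extents of both genes in the GENCODE annotation overlap by 1503 bases on opposite strands, although the RefSeq starts used for the windows lie 307 bases apart. The use of strand in counting is not given in the sources used here.

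ECI1 is the isomerase that moves the double bond of unsaturated chains so that they can enter the round. It was called lower in palbociclib, doxorubicin, alisertib, and bleomycin cells than in untreated day-7 cells. Neither FASTIS group was tested against any of these groups alone. ECI1 was at 66.4, 68.2, and 59.2 CPM in untreated day-0 and 72.6, 67.1, and 63.5 CPM in untreated day-7 cells, and at 69.7, 56.3, and 60.2 CPM in TVB-3166 cells, within that range or just below it. It fell to 36.8, 42.9, and 33.7 CPM in palbociclib, 45.1, 51.4, and 37.6 CPM in doxorubicin, and 52.4, 53.99, and 48.4 CPM in alisertib cells, and these 9 libraries lay below all 6 controls. Bleomycin libraries were at 55.3, 56.5, and 44.5 CPM and also lay below all controls. In ND-646 cells replicate 1 was at 121 CPM, the highest of all 24 libraries, whereas replicates 2 and 3 were at 57.3 and 59.0 CPM.
Against untreated day-0 cells ECI1 was 1.71-fold lower in palbociclib cells (log2 fold-change -0.77 ± 0.11, adjusted p = 2.0e-04), 1.43-fold lower in doxorubicin cells (-0.52 ± 0.12, adjusted p = 0.00545), and 1.25-fold lower in alisertib cells (-0.33 ± 0.09, adjusted p = 0.0190). Bleomycin cells were not called (-0.30 ± 0.12, adjusted p = 0.0621). All 4 were called against untreated day-7 cells, at -0.84 ± 0.10 in palbociclib (adjusted p = 7.34e-05), -0.58 ± 0.11 in doxorubicin (adjusted p = 0.00151), -0.38 ± 0.08 in alisertib (adjusted p = 0.0105), and -0.37 ± 0.11 in bleomycin cells (adjusted p = 0.0269). In TVB-3166 cells the log2 fold-change was -0.05 against untreated day-0 (95% confidence interval -0.29 to 0.18) and -0.12 against untreated day-7 cells (-0.33 to 0.09). In ND-646 cells it was 0.27 (-0.34 to 0.89) and 0.21 (-0.42 to 0.83), and without ND-646 replicate 1 it was -0.16 (adjusted p = 0.250) and -0.23 (adjusted p = 0.0525). With untreated day-0 replicate 1 left out, palbociclib (-0.75, adjusted p = 2.11e-04), doxorubicin (-0.51, adjusted p = 0.00789), and alisertib cells (-0.29, adjusted p = 0.0311) were still called, and bleomycin (-0.29), TVB-3166 (-0.03), and ND-646 cells (0.29) were not. Leaving out 1 library ended the alisertib call against untreated day-0 cells without alisertib replicate 1 or 3 or untreated day-0 replicate 2 (log2 fold-change -0.33 to -0.27, adjusted p = 0.0508 to 0.0926), the alisertib call against untreated day-7 cells without alisertib replicate 3 (log2 fold-change -0.33, adjusted p = 0.0577), and the bleomycin call without bleomycin replicate 3 or untreated day-7 replicate 1 or 2 (log2 fold-change -0.38 to -0.27, adjusted p = 0.0541 to 0.0934). Total-count scaling ended the alisertib call against untreated day-0 cells (-0.19, adjusted p = 0.160). With all 24 libraries in 1 fit, the alisertib calls against untreated day-0 (-0.33, adjusted p = 0.210) and untreated day-7 (-0.39, adjusted p = 0.228) and the bleomycin call against untreated day-7 cells (-0.38, adjusted p = 0.119) were lost.

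ETFB, the β subunit of the electron transfer flavoprotein, was called lower in all 6 drug groups against both controls, and in 8 of these 12 comparisons also when all 24 libraries were fitted together. It was at 21.8, 23.1, and 18.7 CPM in untreated day-0 cells and 18.7, 18.4, and 18.2 CPM in untreated day-7 cells. It was at 15.5, 8.18, and 7.301 CPM in ND-646, 10.8, 12.5, and 8.596 CPM in TVB-3166, and 8.902, 12.4, and 7.17 CPM in doxorubicin cells. It was at 14.6, 12.6, and 12.99 CPM in bleomycin, 14.2, 14.9, and 12.5 CPM in palbociclib, and 15.02, 15.1, and 13.6 CPM in alisertib cells. The highest of the 18 drug-treated libraries, ND-646 replicate 1, stayed below the lowest of the 6 controls, 18.2 CPM. By group mean, doxorubicin (9.49 ± 2.67 CPM), ND-646 (10.3 ± 4.505 CPM), and TVB-3166 cells (10.6 ± 1.94 CPM) were lowest. Bleomycin (13.4 ± 1.02 CPM), palbociclib (13.9 ± 1.26 CPM), and alisertib cells (14.6 ± 0.824 CPM) came next, and neighbours in this order of drug groups did not differ beyond their spread. ETFB shares 16016 bases with a further annotated gene on the same strand that has no row of its own.
Against untreated day-0 cells ETFB was 2.22-fold lower in doxorubicin (log2 fold-change -1.15 ± 0.19, adjusted p = 8.55e-04), 2.08-fold lower in ND-646 (-1.06 ± 0.28, adjusted p = 0.0158), and 1.99-fold lower in TVB-3166 cells (-0.99 ± 0.15, adjusted p = 2.61e-04). The fold was 1.58 in bleomycin (-0.66 ± 0.14, adjusted p = 0.00360), 1.53 in palbociclib (-0.62 ± 0.13, adjusted p = 0.00207), and 1.45 in alisertib cells (-0.54 ± 0.12, adjusted p = 0.00547). The log2 fold-changes of ETFB against untreated day-7 cells were -0.93 ± 0.17 in doxorubicin (adjusted p = 9.72e-04), -0.85 ± 0.27 in ND-646 (adjusted p = 0.0400), -0.79 ± 0.14 in TVB-3166 (adjusted p = 6.35e-04), -0.45 ± 0.12 in bleomycin (adjusted p = 0.0129), -0.40 ± 0.11 in palbociclib (adjusted p = 0.00945), and -0.32 ± 0.10 in alisertib cells (adjusted p = 0.0386). The ND-646 value without ND-646 replicate 1 was -1.46 against untreated day-0 (adjusted p = 6.15e-05) and -1.26 against untreated day-7 cells (adjusted p = 2.4e-05). With it, the call against untreated day-0 cells was lost without ND-646 replicate 2 or untreated day-0 replicate 1 or 2 (log2 fold-change -1.04 to -0.92, adjusted p = 0.0528 to 0.0611) and that against untreated day-7 cells without ND-646 replicate 2 or 3 or untreated day-7 replicate 1, 2, or 3 (log2 fold-change -0.86 to -0.66, adjusted p = 0.101 to 0.118). Against untreated day-7 cells the alisertib call was lost without any 1 of its 6 libraries (log2 fold-change -0.35 to -0.27, adjusted p = 0.0504 to 0.152), and the bleomycin call without untreated day-7 replicate 3 (log2 fold-change -0.46, adjusted p = 0.0511). The fit of all 24 libraries lost the alisertib calls against untreated day-0 (-0.54, adjusted p = 0.0530) and untreated day-7 cells (-0.34, adjusted p = 0.348) and the bleomycin (-0.46, adjusted p = 0.0790) and palbociclib calls (-0.41, adjusted p = 0.134) against untreated day-7 cells. Apart from the ND-646 call, all calls against untreated day-0 cells held without untreated day-0 replicate 1, at -1.14 in doxorubicin to -0.51 in alisertib cells.

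ETFA, the α subunit that pairs with ETFB in the flavoprotein, was called lower in 1 of the 12 comparisons with a control in which ETFB was called. ETFA was at 249, 255, and 257 CPM in untreated day-0 and 242, 289, and 272 CPM in untreated day-7 cells. It was at 226, 242, and 221 CPM in doxorubicin, 232, 210.3, and 217 CPM in bleomycin, and 261, 197, and 180.2 CPM in ND-646 cells. TVB-3166, palbociclib, and alisertib libraries spanned 219 to 280.2 CPM and overlapped with the controls. The one call was in bleomycin against untreated day-7 cells (log2 fold-change -0.27 ± 0.09, adjusted p = 0.0364), and it was lost without bleomycin replicate 2 or 3 or untreated day-7 replicate 2 or 3 (log2 fold-change -0.27 to -0.22, adjusted p = 0.0955 to 0.122). Without ND-646 replicate 1, ETFA was also called lower in ND-646 cells, at -0.43 against untreated day-0 (adjusted p = 0.00565) and -0.52 against untreated day-7 cells (adjusted p = 0.00123). The latter comparison was also called with all 24 libraries in 1 fit (-0.33, adjusted p = 0.0180) and with total-count scaling (-0.58, adjusted p = 0.0122). With untreated day-0 replicate 1 left out, ETFA was called in no drug group against untreated day-0 cells, at -0.29 in ND-646 to 0.02 in alisertib cells.
Per kb, the ratio of ETFA to ETFB mRNA was 4.36, 4.197, and 5.24 in untreated day-0 and 4.94, 5.99, and 5.695 in untreated day-7 cells. It was 6.42, 9.19, and 9.403 in ND-646, 8.95, 7.67, and 9.72 in TVB-3166, and 9.65, 7.44, and 11.8 in doxorubicin cells. It was 6.07, 6.33, and 6.36 in bleomycin, 7.24, 6.805, and 7.19 in palbociclib, and 6.03, 7.06, and 7.13 in alisertib cells. All 18 drug-treated libraries lay above the highest control ratio of 5.99, and the group means were 4.597 ± 0.561 and 5.54 ± 0.541 in the controls and 6.25 ± 0.158 in bleomycin to 9.61 ± 2.15 in doxorubicin cells. This ratio was computed after the values of both genes had been seen and was not tested.

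ETFDH, the inner-membrane oxidoreductase that passes electrons from ETF to coenzyme Q, was lower in 5 of 6 drug groups. It was at 45.9, 48.5, and 53.4 CPM in untreated day-0 and 48.0, 57.2, and 50.05 CPM in untreated day-7 cells. It was at 29.6, 25.5, and 21.6 CPM in ND-646 and 30.5, 33.5, and 29.3 CPM in TVB-3166 cells. It was at 31.9, 38.5, and 34.2 CPM in doxorubicin, 35.0, 45.1, and 32.9 CPM in palbociclib, and 39.9, 39.8, and 35.6 CPM in bleomycin cells. All libraries of these 5 groups lay below all controls, whereas alisertib libraries, at 43.3, 48.3, and 41.8 CPM, overlapped with them. ND-646 cells had the lowest mean (25.5 ± 4.001 CPM), followed by TVB-3166 (31.1 ± 2.15 CPM), doxorubicin (34.9 ± 3.35 CPM), palbociclib (37.7 ± 6.54 CPM), bleomycin (38.4 ± 2.45 CPM), and alisertib cells (44.5 ± 3.38 CPM), and neighbours overlapped within their SDs except bleomycin and alisertib, whose ranges did not meet.
Against untreated day-0 cells ETFDH was 1.95-fold lower in ND-646 (log2 fold-change -0.96 ± 0.16, adjusted p = 0.00200) and 1.58-fold lower in TVB-3166 cells (-0.66 ± 0.10, adjusted p = 2.57e-04). It was 1.401-fold lower in doxorubicin (-0.49 ± 0.10, adjusted p = 0.00384), 1.31-fold lower in palbociclib (-0.39 ± 0.13, adjusted p = 0.0225), and 1.28-fold lower in bleomycin cells (-0.35 ± 0.11, adjusted p = 0.0238). For ETFDH against untreated day-7 cells the log2 fold-changes were -1.03 ± 0.15 in ND-646 (adjusted p = 0.00161), -0.73 ± 0.10 in TVB-3166 (adjusted p = 9.12e-05), -0.54 ± 0.10 in doxorubicin (adjusted p = 0.00116), -0.45 ± 0.12 in palbociclib (adjusted p = 0.0101), and -0.42 ± 0.10 in bleomycin cells (adjusted p = 0.00992). Alisertib cells were not called at -0.15 ± 0.10 (adjusted p = 0.261) and -0.20 ± 0.09 (adjusted p = 0.146), and with the replicate number as a block the latter passed (log2 fold-change -0.20, adjusted p = 0.0480). All ND-646, TVB-3166, and doxorubicin calls and all calls against untreated day-7 cells held when any 1 library was left out. The bleomycin call against untreated day-0 cells was lost without bleomycin replicate 3 or untreated day-0 replicate 2 or 3 (log2 fold-change -0.36 to -0.29, adjusted p = 0.0599 to 0.0969) and the palbociclib call without palbociclib replicate 1 or 3 or untreated day-0 replicate 2 or 3 (log2 fold-change -0.39 to -0.30, adjusted p = 0.0580 to 0.0993). Leaving out untreated day-0 replicate 1 kept all 5 calls, at -1.02 in ND-646 to -0.41 in bleomycin cells, and leaving out ND-646 replicate 1 gave -1.07 (adjusted p = 1.16e-04) against untreated day-0 and -1.15 (adjusted p = 2.52e-05) against untreated day-7 cells. Total-count scaling also ended the palbociclib call (-0.26, adjusted p = 0.146). ETFDH shares 1616 bases with PPID on the opposite strand.

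**Figure D2:**
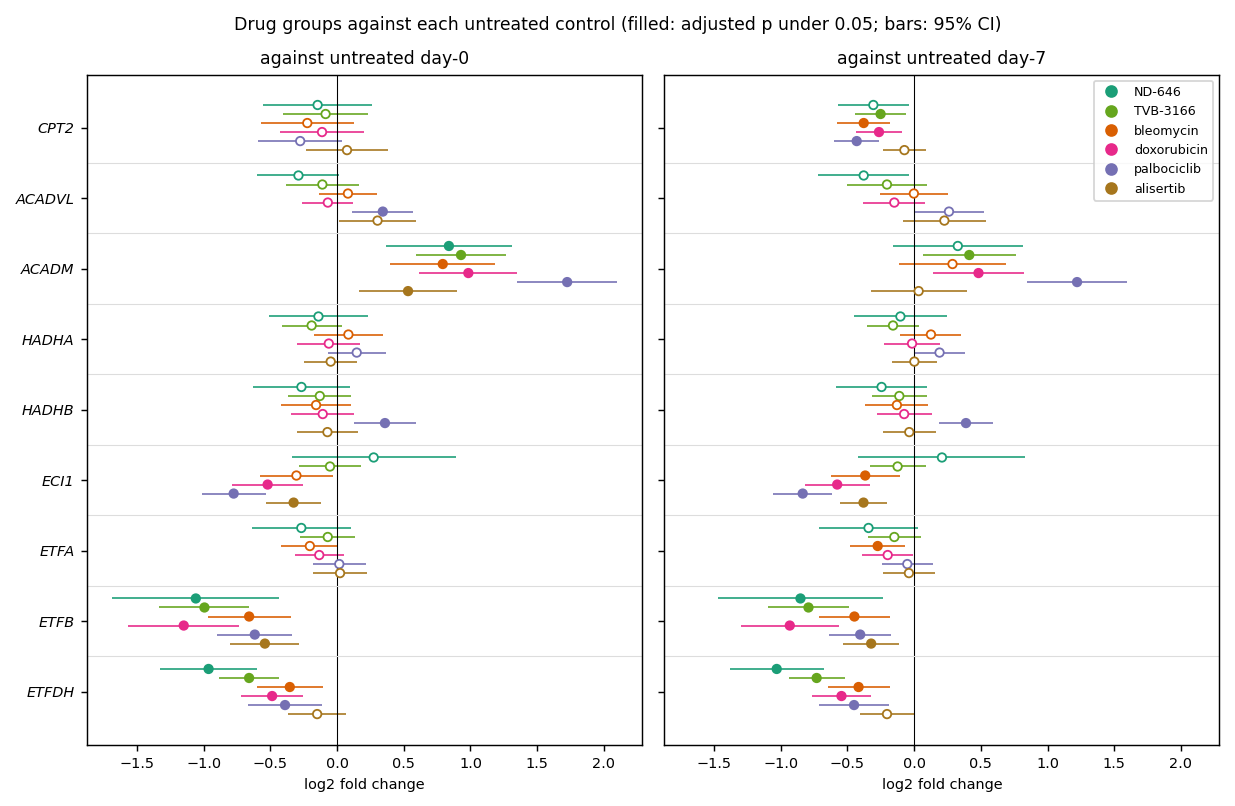
Log2 fold-change (horizontal axis) of each member in the 6 drug groups against untreated day-0 cells (left) and untreated day-7 cells (right), with 95% confidence intervals; filled points passed an adjusted p under 0.05. ETFB is filled in all 12 positions, ACADM in all 6 on the left, and HADHA in none.

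Comparing FASTIS with the 4 other TIS groups uses no untreated library and addresses whether lipogenesis inhibitors differ from the other inducers. In this contrast 1 member was higher and 3 were lower in FASTIS cells, beside 26.1% and 24% of all 14052 genes, a share of 11.1% and 33.3% of the members. ECI1 was 1.53-fold higher in FASTIS cells (log2 fold-change 0.61 ± 0.13, adjusted p = 0.00103), and 0.38 on the log2 scale without ND-646 replicate 1 (adjusted p = 6.16e-04). The lowest FASTIS library, at 56.3 CPM, lay just below the highest of the 12 other libraries, at 56.5 CPM, and these were the only libraries of both sides that overlapped. ETFDH was 1.37-fold lower in FASTIS cells (-0.45 ± 0.08, adjusted p = 2.42e-04), ACADVL 1.28-fold lower (-0.35 ± 0.09, adjusted p = 0.00328), and HADHB 1.14-fold lower (-0.19 ± 0.07, adjusted p = 0.0271). In ETFDH, ACADVL, and HADHB the libraries of both sides overlapped as well. Mean HADHB levels were 97.5 CPM in ND-646, 105.9 in TVB-3166, 103.8 in bleomycin, 107.0 in doxorubicin, 110.5 in alisertib, and 149.2 in palbociclib cells. For ACADVL the means were 210, 235, 269, 241, 314, and 324 CPM in the same order. TVB-3166 cells thus lay near doxorubicin cells in both genes, and palbociclib cells were highest.
The HADHB call was lost without ND-646 replicate 2 or 3 or TVB-3166 replicate 3 (log2 fold-change -0.18 to -0.14, adjusted p = 0.0587 to 0.0882). CPT2 (0.03, 95% confidence interval -0.08 to 0.14), ACADM (-0.11, -0.32 to 0.09), and ETFA (-0.08, -0.24 to 0.08) were not called, and neither were HADHA (-0.18, -0.35 to -0.01, adjusted p = 0.0657) and ETFB (-0.27, -0.58 to 0.04). Without ND-646 replicate 1, HADHA (-0.26, adjusted p = 0.00269), ETFA (-0.17, adjusted p = 0.0151), and ETFB (-0.48, adjusted p = 0.00209) were called lower as well, for 1 member higher and 6 lower, beside 25.2% and 25.6% of all genes. ETFDH was then at -0.52 (adjusted p = 3.4e-05), ACADVL at -0.39 (adjusted p = 0.00122), and HADHB at -0.26 (adjusted p = 9.88e-04). Scaling by total counts, which was another alternative, also called 7 members, with the median of all genes shifted by -0.15 on the log2 scale.

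**Figure D3:**
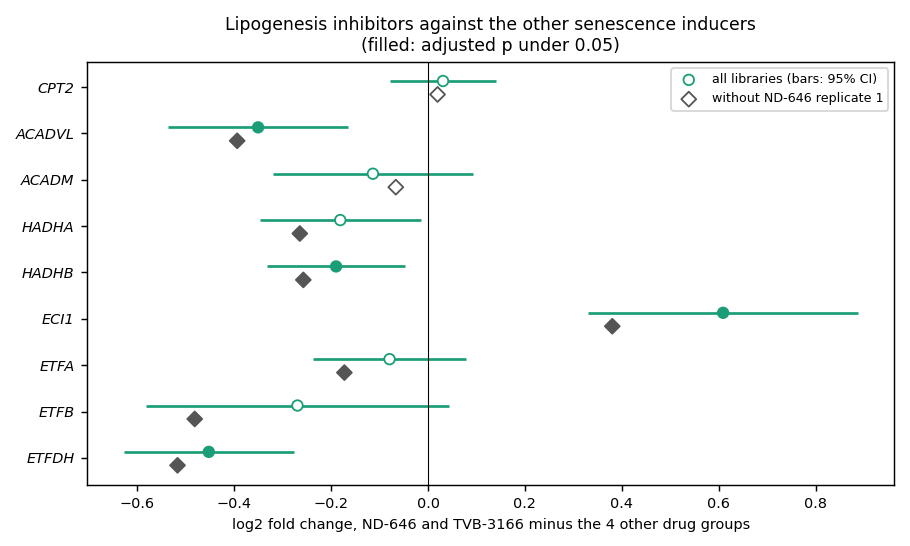
Log2 fold-change of each member (rows) in FASTIS cells against the 4 other TIS groups, with all 18 libraries (circles, bars are 95% confidence intervals) and without ND-646 replicate 1 (diamonds); filled symbols passed an adjusted p under 0.05. ECI1 is on the higher side in both, and 3 members are filled on the lower side with all libraries against 6 without that replicate.

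Between both FASTIS groups 0 members were called, at an adjusted p under 0.05 from edgeR's quasi-likelihood test, with or without the replicate block, beside 0.52% of all genes on the TVB-3166 side and 0.198% on the ND-646 side, and 0 had an unadjusted p under 0.05. DESeq2 also called 0. The intervals were wide. The TVB-3166 minus ND-646 log2 fold-change was -0.34 for ECI1 (95% confidence interval -0.99 to 0.32), 0.05 for ETFB (-0.64 to 0.74), and 0.30 for ETFDH (-0.05 to 0.64). For ACADM it was 0.08 (-0.29 to 0.45), for ACADVL 0.17 (-0.19 to 0.53), and for CPT2 0.05 (-0.23 to 0.33). ETFA was at 0.19 (-0.18 to 0.56), HADHA at -0.06 (-0.41 to 0.29), and HADHB at 0.13 (-0.19 to 0.45). Without ND-646 replicate 1, ETFA (0.36, adjusted p = 0.0324) and ETFDH (0.41, adjusted p = 0.0430) were called higher in TVB-3166 cells. Beside these 2 members, 6.01% of all genes were then higher and 5% lower in TVB-3166 cells. The other 7 members were still not called. ECI1 changed sign to 0.10, ETFB was at 0.46 (adjusted p = 0.126), HADHB at 0.25, and ACADVL at 0.24. CPT2 was at 0.06, and HADHA, at 0.09, and ACADM, at -0.02, changed sign near 0.

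Over the 8 group means, which share libraries with all comparisons above and are given as a description, each member was set against the mean of the other members on the log2 scale. Pearson's r was 0.85 for ETFA, 0.69 for ACADVL, 0.66 for ETFDH, 0.65 for HADHB, 0.63 for ETFB, 0.56 for HADHA, and 0.23 for CPT2. It was -0.47 for ECI1 and -0.48 for ACADM. ACADM was nonetheless positive with HADHB (0.48), HADHA (0.28), and ACADVL (0.24), and ECI1 with CPT2 (0.52) and ETFB (0.16). With ND-646 replicate 1 and untreated day-0 replicate 1 left out of the means, r with the other members was -0.22 for ECI1, -0.46 for ACADM, 0.33 for CPT2, and 0.68 in HADHA to 0.90 in ETFA for the remaining members. The highest of the 36 pairs was ETFB with ETFDH (0.89, and 0.94 without both libraries), and HADHA with HADHB, which share the region printed above, had 0.71 (0.77). The genes outside the set most like the mean of the 9 members were SYNPO (0.98), BCRP2 (0.97), FAM222A-AS1 (0.94), ASMTL (0.94), and SLC9B2 (0.94), and these had 0.89 in ASMTL to 0.98 in SYNPO without both libraries. They were picked for the highest r among the 14078 genes kept over all 24 libraries, members aside. High values over 8 group means are thus built in by the choice, and the values without both libraries use the same groups.

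The steps before and beside the members were described with 8 lists of related genes, by the counts called over all genes tested. For ND-646 the values without its replicate 1 were added after seeing the data. Against untreated day-7 cells, the share of all genes called higher was 9.55% in alisertib and 17.2% in ND-646 to 25.4% in TVB-3166 cells, and the share called lower was 9.49% in alisertib and 17.1% in ND-646 to 26.1% in TVB-3166 cells. Without ND-646 replicate 1 it was 26.7% higher and 28.3% lower in ND-646 cells. Of 9 genes for fatty acid activation and the carnitine shuttle, 2 to 5 were higher and 1 to 3 lower in each drug group against untreated day-7 cells, which is 22.2% to 55.6% and 11.1% to 33.3% of the list. In ND-646 cells 3 were higher and 2 lower, and 4 and 4 without replicate 1. The list's share was at or below that of all genes in 1 of 6 drug groups in each direction. CPT1A, the outer-membrane transferase that malonyl-CoA inhibits, was at 286, 277, and 287 CPM in untreated day-7 cells, 85.2, 127, and 115 CPM in ND-646, and 109, 117, and 124 CPM in TVB-3166 cells. These 6 FASTIS libraries were the lowest of all 24. CPT1A was 2.61-fold lower in ND-646 (log2 fold-change -1.38 ± 0.17, adjusted p = 6.04e-04) and 2.42-fold lower in TVB-3166 cells (-1.27 ± 0.08, adjusted p = 7.8e-07), and its log2 fold-change in FASTIS against the other TIS groups was -1.18 ± 0.08 (adjusted p = 6.03e-09). The ND-646 value of CPT1A without replicate 1 was -1.24 (adjusted p = 1.73e-06). ACSL5, an acyl-CoA synthetase, was higher in all 6 drug groups, at 1.36 ± 0.26 in ND-646 cells (adjusted p = 0.00528) and 0.75 in alisertib to 0.86 in bleomycin cells among the others. CPT1B, the muscle form of the transferase, was higher in TVB-3166 cells (1.80 ± 0.17, adjusted p = 9.1e-06). In ND-646 cells CPT1B was at 2.23, 18.8, and 20.9 CPM against 8.58, 10.1, and 9.56 CPM in untreated day-7 cells and was not called (adjusted p = 0.509), but without the low replicate 1 it was higher (1.07, adjusted p = 7.51e-05). CPT1B shares 9597 bases with the read-through locus CHKB-CPT1B on the same strand, so its reads may be split. CPT1B was also called higher in doxorubicin, palbociclib, and alisertib cells. CPT1C, a brain-enriched form, was lower in TVB-3166 cells (-1.21 ± 0.30, adjusted p = 0.00569).

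Of the 7 genes for other mitochondrial β-oxidation steps, 3 to 6 were lower and at most 1 was higher in each drug group against untreated day-7 cells, with medians of -0.77 in bleomycin to -0.23 in alisertib cells. HADH, the short-chain hydroxyacyl-CoA dehydrogenase, was lower in all 6, from -1.14 ± 0.13 in ND-646 (adjusted p = 4.7e-04) to -0.49 in TVB-3166 and -0.49 in alisertib cells. ECI2, the second isomerase of unsaturated chains, was lower in all 6 as well, from -1.02 ± 0.22 in ND-646 (adjusted p = 0.00774) to -0.29 ± 0.08 in alisertib cells (adjusted p = 0.0341), and thus also in both FASTIS groups, in which ECI1 was not called. ECHS1, the short-chain hydratase, was lower in bleomycin (-0.63 ± 0.10, adjusted p = 0.00137), TVB-3166 (-0.45 ± 0.09, adjusted p = 0.00139), and doxorubicin cells (-0.43 ± 0.09, adjusted p = 0.00296). DECR1, the reductase for polyunsaturated chains, was lower in bleomycin (-0.70 ± 0.11, adjusted p = 0.00115), doxorubicin (-0.55 ± 0.09, adjusted p = 5.12e-04), and TVB-3166 cells (-0.36 ± 0.09, adjusted p = 0.00639). ACAA2, the mitochondrial thiolase, was higher in palbociclib cells (0.25 ± 0.08, adjusted p = 0.0275) and was not called in the other 5 groups when all libraries were used. Without ND-646 replicate 1, all 7 genes were lower in ND-646 cells, where 3 had been, with a median of -0.77. ECHS1 (-0.77, adjusted p = 8.46e-05), ACAA2 (-0.59, adjusted p = 5.62e-04), and DECR1 (-0.58, adjusted p = 3.56e-04) were among them.

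The 17 genes of the tricarboxylic acid cycle and the 18 of complex III and coenzyme Q synthesis were lower or not called, with 2 exceptions. Cycle genes called lower against untreated day-7 cells numbered 8 in ND-646, 9 each in TVB-3166 and alisertib, 12 in bleomycin, and 15 each in palbociclib and doxorubicin cells, and 1 (OGDH, 0.26 ± 0.08, adjusted p = 0.0191) was higher, in TVB-3166 cells. FH, the fumarase, was lower in ND-646 cells at -0.96 ± 0.14 (adjusted p = 0.00131) and SUCLG1, a subunit of succinyl-CoA ligase, at -0.91 ± 0.19 (adjusted p = 0.00717). Of the complex III and coenzyme Q genes, 7 were lower in ND-646, 10 in TVB-3166, 13 each in palbociclib and bleomycin, 14 in doxorubicin, and 9 in alisertib cells, with 1 higher, COQ6 in alisertib cells (0.34 ± 0.08, adjusted p = 0.0152), which was named after its value was seen. PDSS1, which builds the tail of coenzyme Q, was lower in ND-646 cells at -1.96 ± 0.16 (adjusted p = 1.07e-04) and COQ3, a methyltransferase of its ring, at -1.40 ± 0.19 (adjusted p = 0.00101). Median log2 fold-changes ranged from -0.43 to -0.22 for the cycle list and from -0.51 to -0.28 for the complex III and coenzyme Q list, against 0.00 to 0.02 for all genes. When ND-646 replicate 1 was left out, 14 cycle genes and 14 of the complex III and coenzyme Q genes were lower in ND-646 cells.

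Peroxisomal β-oxidation, ketone body, regulator, and ETF-linked dehydrogenase genes had calls in both directions. Against untreated day-7 cells, 1 to 5 of 12 peroxisomal genes (8.33% to 41.7%) were higher and 0 to 3 (0% to 25.0%) lower. In ND-646 cells 1 was higher and 2 were lower (8.33% and 16.7%, beside 17.2% and 17.1% of all genes), and 1 and 5 without replicate 1. The share of the peroxisomal list was at or below that of all genes in 5 of 6 drug groups for higher and in 5 of 6 for lower calls. In ND-646 cells CROT, the carnitine octanoyltransferase (-0.83 ± 0.25, adjusted p = 0.0322), and EHHADH, the bifunctional enzyme (-0.73 ± 0.22, adjusted p = 0.0336), were lower. SCP2, a peroxisomal thiolase and sterol carrier, was higher in TVB-3166 cells (0.35 ± 0.11, adjusted p = 0.0171). Of 5 ketone body genes, 0 to 2 were higher and 0 to 3 lower. In ND-646 cells 1 was higher and 2 were lower, and 1 and 3 without replicate 1. The list's share was at or below that of all genes in 3 of 6 drug groups for higher and in 1 for lower calls. OXCT1, which uses ketone bodies, was lower in ND-646 cells (-0.68 ± 0.22, adjusted p = 0.0450).

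Of 13 regulators, 1 to 5 (7.69% to 38.5%) were higher and 2 to 5 (15.4% to 38.5%) lower, and in ND-646 cells it was 5 and 4 with or without replicate 1. That share was at or below the share of all genes in 3 of 6 drug groups for higher and in 1 for lower calls. ACACB, the mitochondrial form of ACC, was lower in ND-646 cells at -2.97 ± 0.28 (adjusted p = 2.08e-04), whereas PPARA, a receptor that activates oxidation genes (0.98 ± 0.33, adjusted p = 0.0491), and SIRT5, a mitochondrial desuccinylase (1.07 ± 0.22, adjusted p = 0.00728), were higher. PDK4, the kinase that turns off pyruvate dehydrogenase, was lower in TVB-3166 cells (-2.41 ± 0.35, adjusted p = 1.77e-04) and higher in bleomycin cells (2.93 ± 0.44, adjusted p = 8.85e-04). In FASTIS against the other TIS groups PDK4 was at -3.42 ± 0.24 (adjusted p = 8.98e-09). Of 7 other dehydrogenases that feed ETF, 0 to 2 were higher and 0 to 4 lower, and in ND-646 cells 0 and 2, or 1 and 3 without replicate 1. The share was at or below that of all genes in 5 of 6 drug groups for higher and in 2 for lower calls. ACAD8 (0.55 ± 0.15, adjusted p = 0.00874) and ACAD10 (0.53 ± 0.10, adjusted p = 0.00104) were higher in TVB-3166 cells, and in ND-646 cells SARDH, the sarcosine dehydrogenase (-1.04 ± 0.25, adjusted p = 0.0140), and GCDH, the glutaryl-CoA dehydrogenase (-0.48 ± 0.14, adjusted p = 0.0279), were lower. All genes named here as called in ND-646 against untreated day-7 cells were also called in the same direction without ND-646 replicate 1. SLC25A20, DMGDH, and PPARGC1A were not analysed here.

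**Figure D4:**
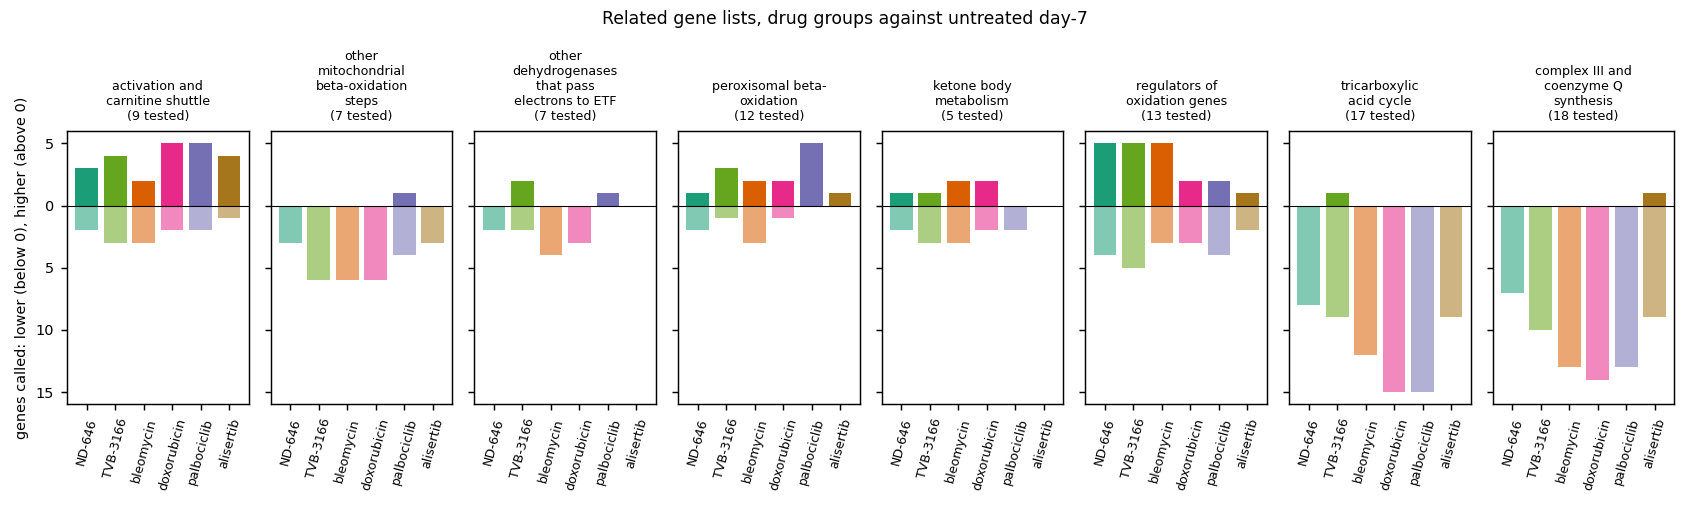
Number of genes called higher (upward bars) and lower (downward, lighter bars) in each of 8 related gene lists for the 6 drug groups against untreated day-7 cells, with the number tested above each panel. Calls in the tricarboxylic acid cycle list reach 15 lower with at most 1 higher, whereas the carnitine shuttle and regulator lists have calls in both directions.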

How the data were processed

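RNA was sequenced from 24 SKBR3 libraries. The labels name a stranded mRNA library kit and the methods a stranded total RNA kit. The authors deposited 1 table of raw read counts per gene, and the submitters' processing notes name HISAT2, StringTie, DESeq2, and GRCh37. How reads were counted, and whether by strand, is not given in the sources used here. The table holds genes with at least 1 count in every library. Columns without a sample numbered 0.

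Counts were tested with edgeR 4.0.16 (R 4.3.3, limma 3.58.1) using filterByExpr, TMM scaling, and the quasi-likelihood test. Each comparison of 2 groups was fitted on their 6 libraries, and FASTIS against the 4 other TIS groups on 18. P-values were adjusted by Benjamini-Hochberg over all genes tested, and the SE is the log2 fold-change divided by the root of F. CPM values carry TMM scaling, and levels per kb use MANE Select exon lengths. Members and gene lists were chosen with earlier results of these data known. The text names all members and, from each list, up to 2 genes per direction with the largest log2 fold-change among those called in ND-646 or TVB-3166 against untreated day-7 cells, plus CPT1A, SLC25A20, HADH, ACAA2, ECHS1, DECR1, and PPARGC1A, and the 5 genes most like the members. Some list genes that this rule selects are not reported here.

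Replicate numbers come from the labels, which do not say that a number marks a shared culture or day. Deviations of same-numbered libraries correlated above 0.1 in all 3 pairs for bleomycin (0.11 to 0.14) and alisertib (0.11 to 0.22) against untreated day-7 and for TVB-3166 against ND-646 cells (0.21 to 0.38), and these numbers were taken to pair. The main values and figures for these comparisons still come from fits without the replicate number. Calls from fits with it as a block are given beside them. On simulated counts for ND-646 against untreated day-0 cells (13532 genes), 59 of 99 genes changed by 1 on the log2 scale and 95 of 98 changed by 2 were recovered, with 11 false calls. Alternatives were DESeq2 1.42.0, other scalings and filters, all 24 libraries in 1 fit, the replicate block, the study's call rule, and leaving out each library.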

Additional observations from a re-analysis of the deposited data

Results flagged for a closer look

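Of the members, 4 differed between FASTIS and the 4 other TIS groups by the test of that difference (edgeR's quasi-likelihood test, Benjamini-Hochberg adjusted). ECI1 differed by 0.61 on the log2 scale (adjusted p = 0.00103), ETFDH by -0.45 (adjusted p = 2.42e-04), ACADVL by -0.35 (adjusted p = 0.00328), and HADHB by -0.19 (adjusted p = 0.0271). For ACADVL and HADHB, palbociclib cells had the highest mean and TVB-3166 cells lay near doxorubicin cells. These 2 differences do not set TVB-3166 apart from each other group. In ETFDH, TVB-3166 libraries (29.3 to 33.5 CPM) overlapped with doxorubicin (31.9 to 38.5 CPM) and palbociclib libraries (32.9 to 45.1 CPM). All 4 differences are between averages, and neither FASTIS group was tested against a single other TIS group. ECI1 read 121 CPM in ND-646 replicate 1 and 57.3 and 59.0 CPM in replicates 2 and 3, and its difference was 0.38 without replicate 1.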

How the results depend on the processing

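With 3 libraries per group the spread between replicates limits the members more than depth does. No called fold-change of the 9 members changed direction under the alternatives run. Of 1080 member values under alternatives that used all libraries, 972 kept both their sign and their side of the threshold. Of the rest, 30 newly passed the threshold, 60 no longer did, and 18 changed sign without being called in either fit. With 1 library left out, 918 values divided into 792, 26, 56, and 44 in the same order.

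Under the study's rule of at least 2-fold with an unadjusted p under 0.05, the number of members called was 1 each in ND-646, doxorubicin, and palbociclib and 0 each in TVB-3166, bleomycin, and alisertib cells against untreated day-0. With untreated day-7 cells as the control it was 1 each in ND-646 and palbociclib and 0 in the other 4 groups, and for FASTIS against the other TIS groups it was 0. With all 24 libraries in 1 fit, 1 member was called in alisertib against untreated day-0 cells and 5 in ND-646, 2 in TVB-3166, 3 in bleomycin, and 0 in alisertib against untreated day-7 cells. Scaling by total counts gave 6 in ND-646 against untreated day-7 cells and 7 for FASTIS. That scaling shifted the median log2 fold-change of all genes by -0.22 and -0.15 in these comparisons, and by -0.11 to 0.14 in those with untreated day-0 cells, whereas RLE factors shifted it by at most 0.01. The cause was not tested.

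With the replicate number as a block, alisertib had 4 members called against untreated day-7 cells and untreated day-7 cells had 1 (ACADM) against untreated day-0 cells, a comparison in which the numbers were not taken to pair. In alisertib against untreated day-0 cells, also not paired, the block called ACADVL higher at 0.28 (adjusted p = 0.0360). Where the numbers were taken to pair, the block called 6 members in bleomycin against untreated day-7 cells and 0 in TVB-3166 against ND-646 cells.

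When 1 library was left out, the number of members called ranged against untreated day-0 cells from 2 to 7 in ND-646, 3 to 4 in TVB-3166, 4 to 5 in doxorubicin, 2 to 4 in bleomycin, 4 to 7 in palbociclib, 1 to 3 in alisertib, and 0 to 0 in untreated day-7 cells. Against untreated day-7 cells it ranged from 1 to 7 in ND-646, 2 to 5 in TVB-3166, 3 to 5 each in doxorubicin and bleomycin, 6 to 7 in palbociclib, and 0 to 1 in alisertib cells. It ranged from 0 to 2 for TVB-3166 against ND-646 and from 3 to 7 for FASTIS. The count of 7 in ND-646 against either control and for FASTIS was reached without ND-646 replicate 1. Of all genes, 27.1% were then higher and 27.8% lower against untreated day-0 cells, 26.7% and 28.3% against untreated day-7 cells, and 25.2% and 25.6% for FASTIS. Shares of all genes are not given for the block, other scalings, the fit of all 24 libraries, or other libraries left out, except untreated day-0 replicate 1. Those member counts therefore say little about the members as a set.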
